A study of Mus musculus with 10 samples.

Results

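The genes described here encode 10 enzymes that make NADPH or, for Nadk, its precursor NADP. They were followed in colon tumours of mice with and without Ucp2. The members were given as gene symbols and found in the deposited table by Entrez gene number, which is part of each row name. All 10 of the 10 were found, among 23112 genes tested, and each had 1 probe set. The platform annotation lists 9 of them. The row of G6pdx is not listed there and was matched to its RefSeq gene number, 14381. RNA was measured on 10 arrays, 1 per tumour sample, 5 from Ucp2+/+ mice (WT, replicates 1 to 5) and 5 from Ucp2-/- mice (KO, replicates 6 to 10). Both groups carry the strain label C57BL6/J, and both received azoxymethane, a carcinogen, and dextran sodium sulphate, which injures the colon (AOM/DSS). Tumours were taken at week 15 of that protocol. The labels used here give no age and do not say how the Ucp2 allele was made, whether it is missing from every cell type, or whether the samples of a group come from separate mice. The p-values therefore measure the spread between these samples, which may be partly technical.

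NADPH carries the electrons that cells spend on building fatty acids, sterols and deoxyribonucleotides and on keeping glutathione and thioredoxin reduced. It does not cross the inner mitochondrial membrane, so the cytosol and the mitochondrial matrix each make their own. In the cytosol the oxidative pentose phosphate pathway (G6pdx, Pgd), malic enzyme 1 (Me1), isocitrate dehydrogenase 1 (Idh1) and the folate enzyme Mthfd1 supply it. In the matrix the sources include malic enzyme 2 (Me2, which can use NAD or NADP), isocitrate dehydrogenase 2 (Idh2), the folate enzyme Mthfd2 (which uses NAD or NADP) and the proton-driven transhydrogenase Nnt. Nadk is the NAD kinase of the cytosol. Ucp2 is a carrier of the inner mitochondrial membrane that has been reported to export 4-carbon acids such as malate and oxaloacetate from the matrix. In the C57BL/6J strain Nnt carries a known deletion of several exons.

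The row with the gene number of Ucp2, which the platform annotation does not list, had log2 signals of 10.84 to 11.55 in WT and 9.73 to 9.97 in KO. Every KO tumour lay below every WT tumour, and the signal in KO was still well above the guide to background used here. That guide is a log2 signal of 5.14, set so that 95% of 1088 olfactory receptor genes have a mean signal below it, since no detection call came with the values. Array medians lay between 5.84 and 5.93, and arrays correlated with one another at 0.965 to 0.993. All 14 epithelial markers had mean signals above the guide (the lowest at 7.02). The tumours differed in marker signals, also within the epithelium. The score of 9 absorptive colonocyte markers, the mean deviation of their log2 signals from each gene's mean, ran from -2.30 in WT replicate 5 and -0.997 in KO replicate 10 up to 1.05 in KO replicate 7. For the 14 epithelial markers the same kind of score ran from -0.210 in WT replicate 5 to 0.145 in WT replicate 4. These are bulk samples, so fewer cells of a type and less RNA per cell cannot be told apart.

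No enzyme gene differed between the genotypes after adjustment over all genes. By limma, 0 of the 10 were called at adjusted p under 0.05, as were 0% of the 23112 genes, of which 1104 had an unadjusted p under 0.05. Ucp2 itself, which the annotation does not list, is not among these tested genes. G6pdx and Pgd, the consecutive dehydrogenases of the oxidative pentose phosphate pathway, had the smallest p-values. At an unadjusted p under 0.05 these 2 of 10 had higher values in KO, beside 2.23% of all genes, and 0 of 10 had lower values, beside 2.55% of all genes. In 0 of 10 did the values of the genotypes not overlap, against 0.835% of all genes. The median difference of the members, KO minus WT, was 0.04 on the log2 scale, and that of all genes was -0.02. Of the 6 cytosolic members 5 had positive differences (median 0.15), and of the 4 mitochondrial members 1 did (median -0.03), beside 42.2% of all genes. Here and below, all genes include those under the guide to background. The share of positive differences among the genes above it was not counted.

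**Figure D1:**
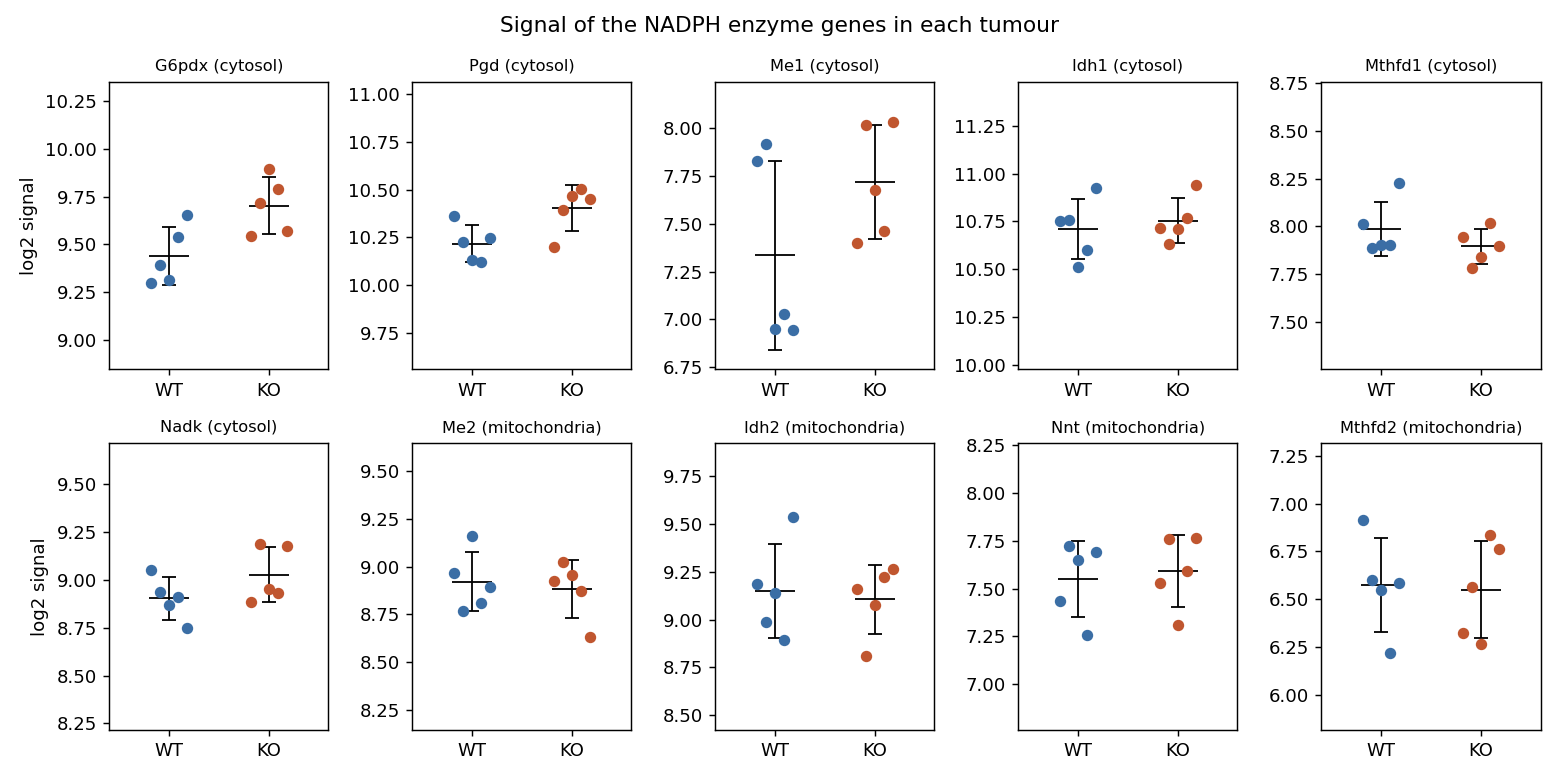
Log2 signal (vertical axis) of each enzyme gene in the 5 WT (blue) and 5 KO (orange) tumours, with the mean (bar) and SD (whiskers). Each panel has its own range of equal height, so spreads but not levels can be compared between panels. The genotypes overlap in all 10 genes, and Me1 varies most.

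The start regions of G6pdx, Pgd and Me1 are shown because these cytosolic genes had the smallest p-values among the enzymes and because they are known targets of the transcription factor Nrf2. The sequences come from a RefSeq table of windows from 250 bases before to 50 after a transcript start (build GRCm38.p6). In it 8 of the 10 genes were matched, with 12 windows in all, and Me2 and Nnt were not. The core of the antioxidant response element that Nrf2 binds, TGACNNNGC, was searched on both strands. Pgd and Me1 have 2 windows each, and for both only the window that holds a match is shown. Matches are in capitals. They occur in 3 of the 12 windows, those shown here, and in 12.4% of 32851 windows of all genes. All 3 windows are on the minus strand of their chromosome and are written 5′ to 3′ along the gene.
G6pdx, chrX:74428831-74429130: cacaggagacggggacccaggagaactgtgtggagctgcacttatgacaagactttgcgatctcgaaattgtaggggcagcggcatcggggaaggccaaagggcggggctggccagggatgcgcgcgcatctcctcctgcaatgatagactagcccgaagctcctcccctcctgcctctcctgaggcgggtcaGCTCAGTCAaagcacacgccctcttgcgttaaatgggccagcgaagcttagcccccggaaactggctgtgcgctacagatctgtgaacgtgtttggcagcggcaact
Pgd, the second of its 2 windows, chr4:149166033-149166332: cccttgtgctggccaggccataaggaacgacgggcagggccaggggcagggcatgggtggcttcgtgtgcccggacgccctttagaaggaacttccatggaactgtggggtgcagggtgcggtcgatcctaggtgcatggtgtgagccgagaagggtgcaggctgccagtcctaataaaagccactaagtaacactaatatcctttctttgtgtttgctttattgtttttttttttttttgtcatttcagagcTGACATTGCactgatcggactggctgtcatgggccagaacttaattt
Me1, the first of its 2 windows, chr9:86695865-86696164: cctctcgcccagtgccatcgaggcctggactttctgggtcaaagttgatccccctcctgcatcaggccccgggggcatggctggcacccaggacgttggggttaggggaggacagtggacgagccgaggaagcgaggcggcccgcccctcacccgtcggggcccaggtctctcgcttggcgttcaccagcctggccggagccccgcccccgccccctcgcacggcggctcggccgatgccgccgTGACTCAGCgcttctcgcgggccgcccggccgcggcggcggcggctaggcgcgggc
Counted from the transcript start, the match begins at -57 in G6pdx, on the opposite strand, and at -6 in Me1. In Pgd it begins at 3, inside the transcript of the downstream start, and the upstream window of Pgd holds none. The letters just before that downstream start are rich in t and end in cag, which resembles the end of an intron. Whether this window of Pgd is a promoter was not tested. The match in Me1 overlaps an AP-1 site, TGANTCA, which 7.81% of all windows hold. The CACGTG E-box was found in 1 of the 12 windows, that of a Nadk start (7.15% of all windows), and the core of the amino acid response element bound by Atf4, TGATGNAA, in 0 of 12 (3.97% of all windows). A match to these letters describes the sequence and does not show that a factor binds there.

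G6pdx encodes glucose-6-phosphate dehydrogenase, the committed step of the pentose phosphate pathway. Its log2 signals were 9.30, 9.39, 9.31, 9.54 and 9.65 in WT and 9.54, 9.72, 9.90, 9.79 and 9.57 in KO. WT replicates 1 to 4 lay below every KO tumour, replicate 4 by little, and KO replicates 7 to 9 above every WT tumour. WT replicate 5 lay among the KO tumours. The means were 9.44 ± 0.15 (SD, n = 5) and 9.70 ± 0.15, a difference of 0.26 ± 0.09 (SE) or 1.20-fold. Its 95% confidence interval on the log2 scale was 0.06 to 0.47 (limma unadjusted p = 0.0167, adjusted p = 0.910, rank 350 of all genes). G6pd2, an autosomal copy of the gene, stayed between 3.90 and 4.42 in all tumours, under the guide to background. Whether probes are shared between the copies is not stated in the labels or files. G6pdx is on the X chromosome, and the labels give no sex. Xist, the RNA of the inactive X of female cells, was at 4.07 ± 0.04 in WT and 4.03 ± 0.10 in KO, under the guide, and the Y-linked gene Uty at 8.69 ± 0.15 and 8.69 ± 0.11, so neither separated the genotypes.

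Pgd encodes 6-phosphogluconate dehydrogenase, which makes the second NADPH of the pathway. It measured 10.36, 10.23, 10.13, 10.12 and 10.25 in WT and 10.20, 10.39, 10.47, 10.50 and 10.45 in KO. The KO replicates 7 to 10 exceeded every WT tumour, and KO replicate 6 lay within the WT range. The difference was 0.18 ± 0.07 (SE), or 1.14-fold, with an interval of 0.02 to 0.35 (limma unadjusted p = 0.0308, adjusted p = 0.910). Leaving out WT replicate 3 or 4 or KO replicate 8, 9 or 10 left G6pdx as the only member at unadjusted p under 0.05 (Pgd at 0.0617 to 0.0744). Without WT replicate 1 or 2 the count was 3, with Me1 as the third (0.0462 and 0.0309).

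Several cell type scores also had higher values in KO, among them that of the macrophage markers. The difference was positive for all 10 measured macrophage markers, and 8 had an unadjusted and 0 an adjusted p under 0.05, where 2.23% of all genes were higher at the unadjusted threshold. Their score ran from -0.316 to -0.0563 in WT and from -0.0696 to 0.488 in KO, led by the complement genes C1qc (difference 0.46 ± 0.10) and C1qb (0.60 ± 0.14) and the membrane protein gene Ms4a7 (0.56 ± 0.13). Over the 10 tumours that score correlated with G6pdx at r = 0.722 and rho = 0.685 (permutation p = 0.0190 and 0.0341, adjusted p = 0.145 and 0.191 over 60 relations of members with marker scores). For Pgd it did so at r = 0.709 and rho = 0.673 (permutation p = 0.0241 and 0.0393, adjusted p = 0.145 and 0.196). With each genotype centred on its own mean r was 0.382 and 0.370. Without the 2 arrays farthest from the median of each gene it was 0.606 and 0.741. Neither relation passed the adjustment, and they were not particular to the pentose phosphate genes. For Me1 the same score gave r = 0.663 and rho = 0.745 (permutation p = 0.0384 and 0.0169, adjusted p = 0.188 and 0.191), with r at 0.467 without WT replicates 3 and 5. For Nadk it gave r = 0.644 and rho = 0.758 (permutation p = 0.0439 and 0.0150, adjusted p = 0.188 and 0.191), with r at 0.278 without KO replicates 7 and 10. With genotypes centred r was 0.549 for Me1 and 0.505 for Nadk. All 10 smooth muscle markers also had positive differences (median 0.40, 0 with an unadjusted p under 0.05), and their score ran from -0.643 to 0.178 in WT and from -0.563 to 0.749 in KO. With that score as a covariate the G6pdx difference was 0.24 (limma unadjusted p = 0.05001) and that of Pgd 0.21 (0.0332). Of 9 measured T and NK cell markers 8 had positive differences, 3 of them with an unadjusted p under 0.05. The part of macrophages and T cells in the differences of these genes was not tested.

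**Figure D2:**
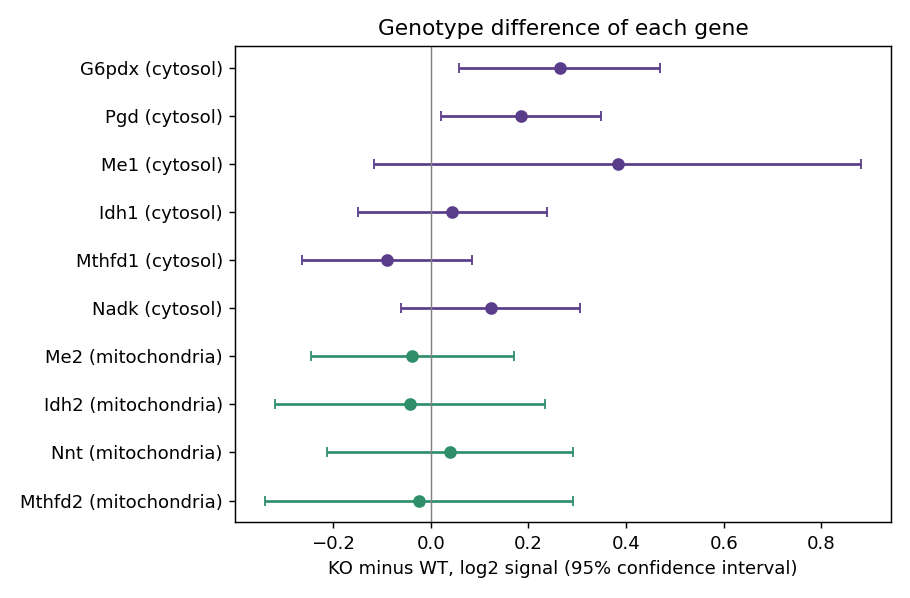
Difference KO minus WT in log2 signal (horizontal axis) for each enzyme gene, with the 95% confidence interval of limma, cytosolic genes in purple and mitochondrial genes in green. The intervals of G6pdx (0.06 to 0.47) and Pgd (0.02 to 0.35) lie above 0 before adjustment over genes, and the other 8 cover 0.

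Malic enzymes turn malate into pyruvate. Me1, the cytosolic NADP form, had log2 signals of 7.83, 7.92, 6.95, 7.03 and 6.95 in WT and 7.40, 8.02, 7.68, 7.46 and 8.03 in KO. WT replicates 3 to 5 lay below every KO tumour and WT replicates 1 and 2 among the KO tumours. Its SD over the 10 tumours was greater than that of 95.2% of all genes, and highest and lowest tumour were 2.13-fold apart. The difference of 0.38 ± 0.23 (SE) was the greatest among the members, and its interval of -0.12 to 0.88 covered 0 (limma adjusted p = 0.910). Me1 is high in fat. Of 6 measured fat cell markers 3 (Adipoq, Plin1 and Lep) had means under the guide to background and 3 above it, the highest at 5.55, and their score ran from -0.0953 to 0.0917 in WT and from -0.111 to 0.132 in KO. The part of fat cells in the Me1 values was not tested.

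Me2, a mitochondrial form, measured 8.97, 8.77, 9.16, 8.81 and 8.89 in WT and 8.92, 9.03, 8.96, 8.87 and 8.63 in KO. The highest value belonged to WT replicate 3 and the lowest to KO replicate 10, and the rest were mixed. Its difference was -0.04 ± 0.09 (SE), with an interval of -0.25 to 0.17 (limma adjusted p = 0.966). The within-array difference Me1 minus Me2 spanned -2.21 to -0.85 in WT and -1.52 to -0.60 in KO, so the genotypes overlapped (difference of means 0.42 ± 0.30, not tested).

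Isocitrate dehydrogenases oxidise isocitrate to 2-oxoglutarate. Idh1, of cytosol and peroxisomes, had signals of 10.75, 10.76, 10.51, 10.60 and 10.92 in WT and 10.72, 10.63, 10.71, 10.77 and 10.94 in KO. The KO values lay almost wholly within the WT range. The difference was 0.04 ± 0.09 (SE), with an interval of -0.15 to 0.24 (limma adjusted p = 0.959). With the smooth muscle score as a covariate the Idh1 difference was 0.16 (limma unadjusted p = 0.0343, adjusted p = 0.996).

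Idh2, the mitochondrial NADP form, had signals of 9.18, 8.99, 9.14, 8.89 and 9.54 in WT and 9.16, 8.81, 9.07, 9.22 and 9.26 in KO. WT replicate 5 was highest and KO replicate 7 lowest, with the others mixed. The difference was -0.04 ± 0.13 (SE), with an interval of -0.32 to 0.23 (limma adjusted p = 0.975). Idh2 lies on chromosome 7, as does Ucp2, and in the RefSeq order of GRCm38.p6 it is 189 measured genes away. Idh1 minus Idh2 ran from 1.37 to 1.77 in WT and from 1.54 to 1.82 in KO, which overlap.

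Mthfd1 and Mthfd2 carry out the dehydrogenase step of folate one-carbon metabolism, in the cytosol and in mitochondria. Mthfd1 had signals of 8.01, 7.89, 7.90, 7.90 and 8.23 in WT and 7.95, 7.78, 7.84, 8.02 and 7.90 in KO. It was highest in WT replicate 5. Its difference of -0.09 ± 0.08 (SE) was the lowest of the cytosolic members, with an interval of -0.26 to 0.08 (limma adjusted p = 0.910). Without WT replicate 5 it was -0.03, and with the smooth muscle score as a covariate also -0.03. Mthfd2, which is known as low in most adult tissues and raised in many tumours, had signals of 6.91, 6.60, 6.55, 6.22 and 6.58 in WT and 6.32, 6.56, 6.26, 6.83 and 6.76 in KO. Both genotypes spread over most of the same range. Its difference was -0.02 ± 0.14 (SE), with an interval of -0.34 to 0.29 (limma adjusted p = 0.990).

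Nnt, the transhydrogenase of the inner mitochondrial membrane, gave signals of 7.44, 7.72, 7.65, 7.26 and 7.69 in WT and 7.53, 7.76, 7.31, 7.59 and 7.76 in KO. All 10 tumours lay above the guide to background, and the genotypes could not be told apart by it. The difference was 0.04 ± 0.11 (SE), with an interval of -0.21 to 0.29 (limma adjusted p = 0.974), or 0.864 to 1.22 as a ratio of KO to WT. Which exons of Nnt the probes match is stated neither in the labels nor in the files. The summarised signal therefore does not separate a full transcript from the one with the C57BL/6J deletion, and it neither bears out nor opposes the strain label. What it gives is that no tumour of either genotype stood apart in Nnt.

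Nadk phosphorylates NAD to NADP. Its signals were 9.05, 8.94, 8.87, 8.91 and 8.75 in WT and 8.89, 9.19, 8.95, 8.93 and 9.18 in KO. KO replicates 7 and 10 exceeded every WT tumour, and the other KO tumours lay within the WT range. The difference was 0.12 ± 0.08 (SE), with an interval of -0.06 to 0.31 (limma adjusted p = 0.910).

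**Figure D3:**
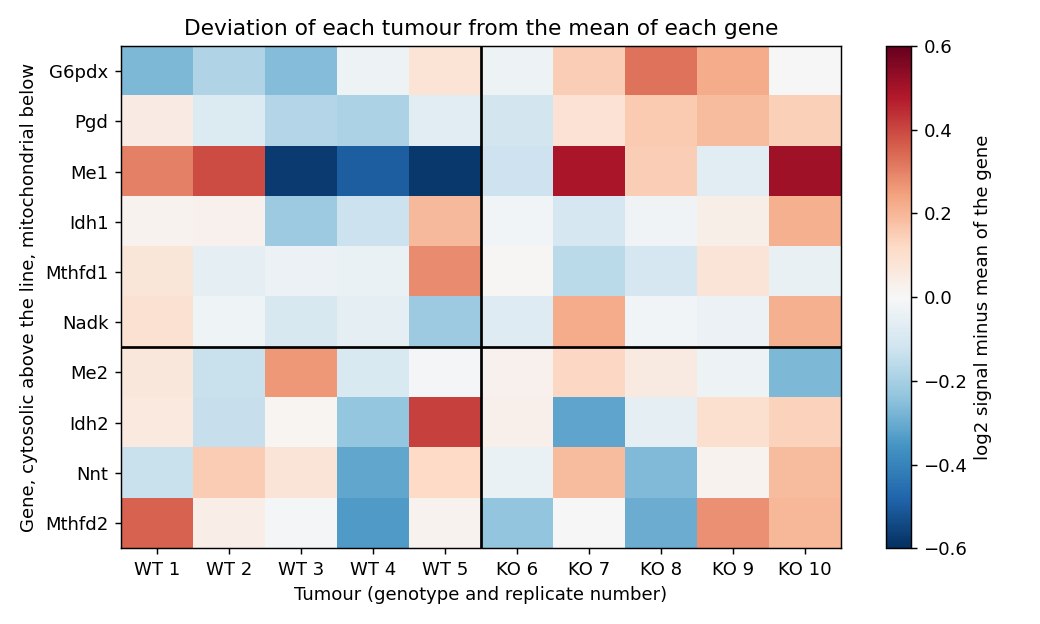
Log2 signal minus the mean of the gene over the 10 tumours (colour) for each enzyme gene (rows) in each tumour (columns), with WT left and KO right of the vertical line. Me1 spans the widest range, and WT replicate 4 lies below the mean in every row.

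Set side by side, tumours of the same genotype differed from one another. WT replicate 4 was below the gene's mean in all 10 members, although 53.6% of the 13909 genes above the guide were above their mean in that array. It was the lowest tumour for Pgd, Nnt and Mthfd2. KO replicate 10 was the highest for Me1, Idh1 and Nnt and the lowest for Me2. Averaged over the 6 cytosolic members, the deviation from the gene mean was -0.0757 ± 0.114 (SD) in WT and 0.0757 ± 0.0849 in KO. Over the 4 mitochondrial members it was 0.00805 ± 0.152 and -0.00805 ± 0.0931. The cytosolic mean ran from -0.227 to 0.0438 in WT and from -0.0593 to 0.171 in KO, so the groups overlapped, and a contrast of the compartments was not tested.

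The members did not vary as a block. Of the 45 pairs 28 correlated positively over the 10 tumours, the median r was 0.114, and by r 2 pairs had an adjusted permutation p under 0.05. Me1 and Nadk varied together, with r = 0.841 and rho = 0.939 (permutation p = 0.00190 and 0.000270, adjusted p = 0.0495 and 0.0121). This held with each genotype centred on its mean (r = 0.797) and without WT replicates 3 and 5, the 2 tumours farthest from the median of Me1 (r = 0.762). Mthfd1 and Idh2 had r = 0.858 and rho = 0.745 (permutation p = 0.00220 and 0.0175, adjusted p = 0.0495 and 0.262). That relation rests on WT replicate 5 and KO replicate 7, without which r was 0.474 (permutation p = 0.229). With genotypes centred it was 0.890. G6pdx and Pgd had r = 0.613 and rho = 0.697 (permutation p = 0.0643 and 0.0301, adjusted p = 0.413 and 0.319). Their r was 0.258 with genotypes centred and 0.723 without WT replicate 1 and KO replicate 8. Idh1 and Idh2 had r = 0.690 and rho = 0.758 (permutation p = 0.0272 and 0.0150, adjusted p = 0.307 and 0.262). For them r was 0.724 with genotypes centred and 0.924 without WT replicate 3 and KO replicate 10.

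Mthfd1 varied along with the proliferation markers. Over the 10 tumours it correlated with the score of 11 proliferation markers at r = 0.870 and rho = 0.915 (permutation p = 0.000170 and 0.000470). The adjusted p over 60 relations was 0.0102 and 0.0282, and this was the 1 relation of the 60 that passed by r. It was 0.847 with genotypes centred and 0.843 without WT replicate 5 and KO replicate 7. The score was highest in WT replicates 5 and 1 (0.253 and 0.229) and lowest in WT replicate 2 and KO replicates 7 and 10 (-0.165, -0.164 and -0.158). Its leading genes were Top2a, the topoisomerase of dividing cells (difference -0.30 ± 0.12), and the mitotic kinase gene Bub1 (-0.29 ± 0.13), and 0 of its 11 genes passed over all genes. Of the 11, 9 had negative and 2 positive differences, beside 57.8% negative among all genes. At a limma unadjusted p under 0.05, 2 of the 11 were lower in KO, beside 2.55% of all genes, and 0 were higher. Mthfd1 was also lower where the fibroblast score was higher (r = -0.761, permutation p = 0.00735, adjusted p = 0.110). The absorptive colonocyte and smooth muscle scores gave r = -0.757 and -0.646 (permutation p = 0.0235 and 0.0385, adjusted p = 0.145 and 0.188). Without WT replicate 5 and KO replicate 7 these values of r were -0.542, 0.0482 and -0.106. Idh2 rose with the proliferation score at r = 0.644 (permutation p = 0.0420, adjusted p = 0.188), and 0.230 without the same arrays. Idh1 was lower where absorptive colonocyte markers were higher (r = -0.837, rho = -0.818, permutation p = 0.00184 and 0.00546, adjusted p = 0.0552 and 0.164), which missed the threshold. Without WT replicate 3 and KO replicate 10 its r was -0.850, and with genotypes centred -0.869. Idh2 had r = -0.806 with the same score (permutation p = 0.00523, adjusted p = 0.105). Its r was -0.368 without WT replicate 5 and KO replicate 7, and -0.804 with genotypes centred. Idh1 was also lower where smooth muscle markers were higher (r = -0.725, permutation p = 0.0176, adjusted p = 0.145), at -0.910 with genotypes centred. In all, 15 of the 60 relations had an unadjusted permutation p under 0.05 by r.

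**Figure D4:**
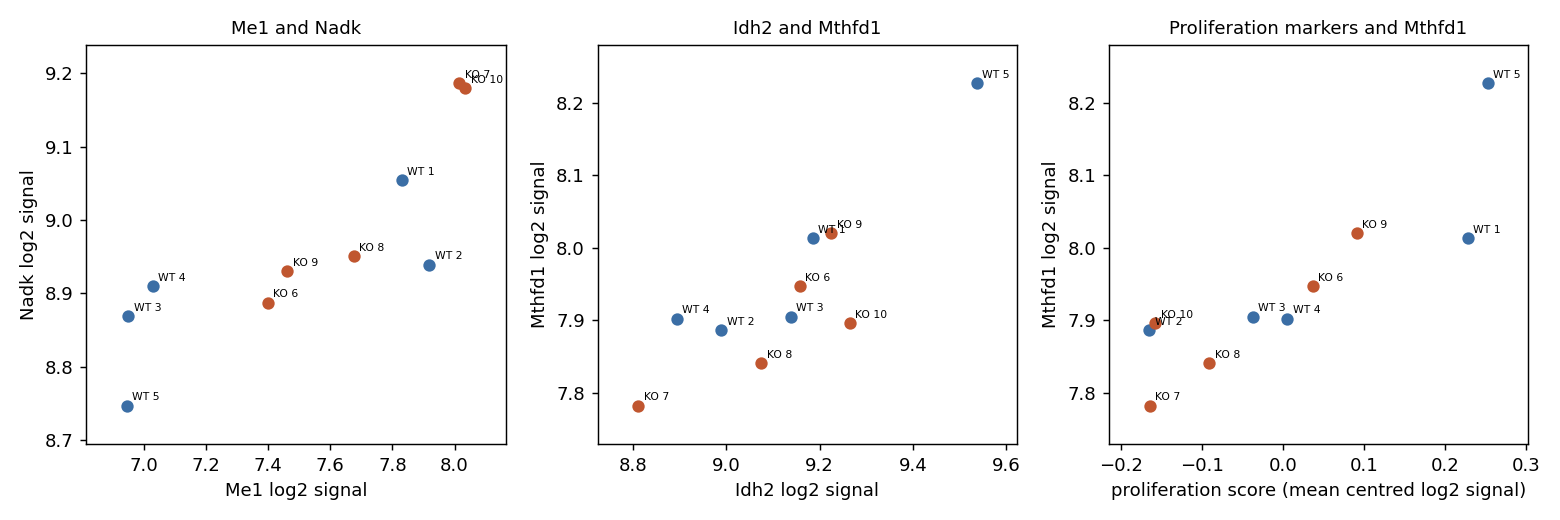
Each point is 1 tumour, WT in blue and KO in orange. The panels plot the log2 signal of Nadk against Me1 (r = 0.841), of Mthfd1 against Idh2 (r = 0.858) and of Mthfd1 against the proliferation score (r = 0.870). In the middle panel WT replicate 5 lies apart from the other 9 tumours.

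The genes with patterns most like those of Nnt and of the 3 members with the smallest p were taken from the genes above the guide, by Pearson r over the 10 tumours, as a description. For G6pdx these were Nsdhl, a sterol synthesis enzyme encoded on the X chromosome as G6pdx is (r = 0.954), the glycosylation enzyme gene Alg3 (0.937) and the Mediator subunit gene Med27 (0.930). For Pgd they were Znhit1 (0.943), Lrrc59 (0.934) and Sec23b, a component of the coat of secretory vesicles (0.918). For Me1 they were the chloride channel accessory gene Clca3a1 (0.9502), the aldehyde dehydrogenase gene Aldh7a1 (0.946) and Vps37c (0.940). Fgf17, Greb1 and Mamdc4 came nearest to Nnt (0.932, 0.911 and 0.897), all with mean signals under 6. These values of r are the highest of 13899 genes compared over 10 tumours and carry no test.

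No related gene passed the test over all genes either. In 10 lists covering the rest of NADPH metabolism, 118 of 133 genes were measured under a listed symbol, 71 with positive and 47 with negative differences (60.2% positive, beside 42.2% of all genes), and 0 passed in either direction. At unadjusted p under 0.05, 4 of the 118 were higher in KO, or 3.39% beside 2.23% of all genes, and 0 were lower, beside 2.55%. Of 10 other sources of NADPH, among them the endoplasmic reticulum enzyme H6pd and the second NAD kinase Nadk2, 5 had positive differences, and the list's smallest p-values were those of Aldh3a1 (-0.14 ± 0.08), Mthfd2l (-0.12 ± 0.09) and Aldh1l1 (0.16 ± 0.14). Aldh3a1 had means under the guide to background in both genotypes. Of 8 other genes around the pentose phosphate pathway 7 had negative differences (median -0.09), as did 57.8% of all genes. They include Rpia at -0.10 ± 0.07 and Rpe at -0.09 ± 0.07, both isomerising enzymes of the non-oxidative branch, and Tigar, a phosphatase that acts on glycolysis, at -0.08 ± 0.07. Prps1, which uses ribose 5-phosphate and is named here after its value was seen, had a positive difference of 0.07 ± 0.17.

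Among genes that feed the folate enzymes, 14 of 18 one-carbon and serine genes were measured and 4 of them were positive (median -0.05). Gcsh of the glycine cleavage system (-0.17 ± 0.11), Tyms, the thymidylate synthase (-0.14 ± 0.10), and Dld (-0.09 ± 0.07) led that list. Of 12 other targets of Atf4, a factor known to raise Mthfd2 in cultured cells, 7 were positive and 0 passed, with Ddit4 (-0.26 ± 0.16), Trib3 (-0.15 ± 0.10) and Cebpb (-0.18 ± 0.11) first and Trib3 under the guide in both genotypes. Of 16 other genes of the Nrf2 response, 11 were positive (median 0.04), with Srxn1 at 0.19 ± 0.11, Gstm2 at 0.35 ± 0.21 and the cystine carrier gene Slc7a11 at -0.48 ± 0.31. In the citrate, malate and aspartate shuttles, through which carbon reaches Me1 and Idh1, 11 of 14 were positive, with Slc25a12 (0.29 ± 0.17), Mdh2 (0.11 ± 0.07) and Got1 (0.31 ± 0.20) first. In NAD supply 8 of 10 were positive, with Nampt at 0.19 ± 0.16, Nnmt, with means under the guide, at 0.10 ± 0.09 and Slc25a51 at -0.10 ± 0.10.

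On the side of NADPH use, 9 of 11 NADPH oxidase genes and Nos2 had positive differences, with a median of 0.22 beside that of -0.02 for all genes. Cybb, the oxidase subunit of phagocytes, was at 0.32 ± 0.13 (limma unadjusted p = 0.0388), its partner Ncf4 at 0.22 ± 0.10 and the epithelial maturation factor gene Duoxa2 at 0.38 ± 0.23. The macrophage score given above also had its higher values in KO, and its part in this list was not tested. Of 10 measured NADPH-using reductases 6 were positive, with the carbonyl reductase gene Cbr1 at 0.24 ± 0.11 (unadjusted p = 0.0447), Ptgr1 at -0.21 ± 0.14 and Dhrs3 at 0.21 ± 0.15. Of 13 genes of fatty acid and sterol synthesis 9 were positive, with Fads2 (0.17 ± 0.07) and Scd1 (0.36 ± 0.15) at unadjusted p of 0.0384 and 0.0406, and Hmgcs1 at -0.15 ± 0.10. All of these had a limma adjusted p of 0.910.

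**Figure D5:**
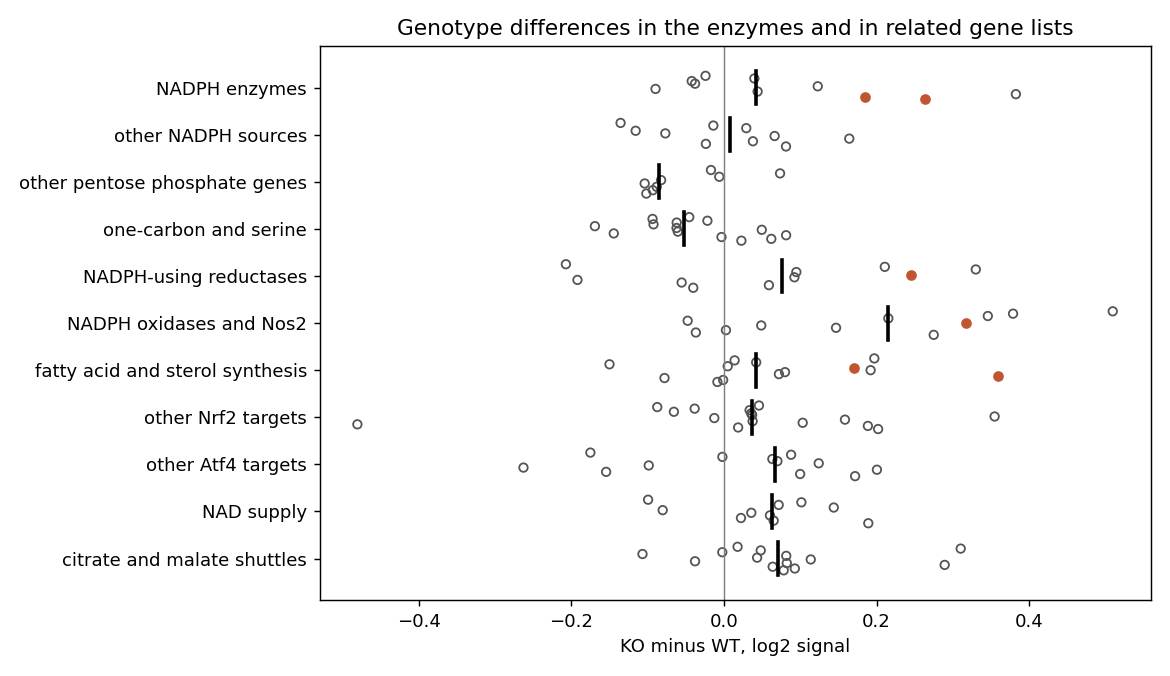
Difference KO minus WT in log2 signal (horizontal axis) of each gene (circles) in the enzyme list (top row) and in the 10 related lists, with the median of each list as a black bar. Filled circles are genes at unadjusted p under 0.05, of which there are 2 in the enzyme list and 4 in the others, all higher in KO.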

How the data were processed

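Total RNA of each tumour was amplified with an Affymetrix kit and hybridised to arrays as biotin-labelled DNA, per the labels' protocols. The authors deposited 1 log2 value per probe set and array. RMA and Partek are named in the submitters' processing notes, with versions not given in the sources used here, and log base 2 was inferred from the range of the values. RMA equalises arrays, so a shift of all genes would not show, and it compresses dim signals.

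Of 23747 probe sets, 23111 are listed with 1 symbol and 636 are not listed. G6pdx was added by gene number, giving 23112 genes. Ucp2, also not listed, was not added. The limma package (3.58.1, R 4.3.3; lmFit, eBayes) compared KO with WT over all genes with no covariate and Benjamini-Hochberg adjustment. Correlations used two-sided permutation tests with 100000 resamples. The number of arrays limits the precision. In data simulated 5 times with independent noise, 200 genes were changed each time, by 1.25, 1.5, 2 or 4-fold. Of the 1.25-fold changes 22% were found, of the 1.5-fold 67.2% and of the 2-fold 91.2%. The larger planted changes ease the adjusted threshold for the smaller ones. These shares are therefore too high for data in which few genes change.

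Members and lists were chosen with earlier results of these data known. Named genes are the members, up to 3 genes of smallest p in each list described, and the 3 genes most like 4 of the members. The relations with marker scores were added later. As alternatives, single arrays or dim genes were left out, and the scaling, variance model, array weights, composition covariates and probe sets were varied.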

Additional observations from a re-analysis of the deposited data

How the results depend on the processing

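No alternative called a member at adjusted p under 0.05. The count of all genes called, 0 as reported, was 0 to 2 with single arrays left out (2 without WT replicate 3, 1 without KO replicate 8), 2 without dim genes, 1 with an intensity trend and robust estimation, 1 with the epithelium score as covariate and 3 over all probe sets. The count of members at unadjusted p under 0.05, 2 as reported, was 1 to 3 with single arrays left out, 1 after quantile normalizing again (G6pdx) and 0 at a threshold of 0.01. With the smooth muscle score as covariate it was also 2, but then Pgd and Idh1. Only the refit over all probe sets holds the row of Ucp2, which the other fits leave out. Which rows that refit called is not given here, and the cause of these moves was not tested. G6pdx, Pgd, Me1, Nadk and Mthfd1 kept their direction in all 19 refits (G6pdx 0.216 to 0.317 and Pgd 0.160 to 0.236 over left-out arrays).

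Differences near 0 changed sign. With single arrays left out Idh1 ran from -0.00514 to 0.0980, Me2 from -0.0755 to 0.0246, Idh2 from -0.106 to 0.0546, Nnt from -0.0332 to 0.111 and Mthfd2 from -0.113 to 0.0609. Idh1 was -0.0236 after quantile normalizing again. Idh2 and Mthfd2 were 0.00699 and 0.00545 with array weights and 0.103 and 0.0705 with the smooth muscle score. The pairs of members correlated at unadjusted permutation p under 0.05 numbered 4 as reported, and 5 with genotypes centred or without the 2 farthest arrays. They were not the same pairs. Only Me1 with Nadk and Idh1 with Idh2 were among them in every one of these settings. The genotypes share no replicate numbers, so no paired fit was made. Signals near background limit only the dimmest related genes, such as Trib3 and Aldh3a1.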
